A study of Mus musculus with 9 samples.

Results

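The genes described here are 43 genes of DNA replication and S phase, taken by name from the non-control probes of a mouse microarray that reads 28473 gene names. They are subunits of the machinery that prepares, opens and copies replication origins, enzymes that supply nucleotides, regulators of entry into S phase, and factors that copy chromatin. Every one of the 43 names was found on the array, 3 of them under older names (Orc1l, Orc6l and Cdc45l, now Orc1, Orc6 and Cdc45), on 60 probes. RNA came from sorted epithelial cells of C57BL/6 mice in 3 groups with 3 replicates each, listed as kidney, MHCIIhi and MHCIIlo. Kidney cells were freed with collagenase, dispase and DNase and sorted as Epcam+ CD45-, with cells of 4 mice pooled in each replicate. MHCIIhi cells were released from the small intestine with EDTA and sorted for high Epcam and high MHC class II, and MHCIIlo cells from the same tissue for intermediate Epcam and intermediate MHC class II (the titles say lo, other label fields int). Each intestinal replicate pooled cells of 3 mice. All sorts excluded CD45+ leukocytes and cells stained by Fluorogold, a marker of dead cells. No age, sex or treatment is given in the labels used here, and no group carries a mutation by its label.

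Replication starts from origins that are licensed in G1. The origin recognition complex, Cdc6 and Cdt1 load a ring of Mcm proteins around DNA, geminin blocks further loading once S phase begins, and Cdc45 and Mcm10 help to turn the loaded ring into a running helicase. Cyclin E and the E2F transcription factors drive entry into S phase, and many replication genes are transcribed at that time. In the small intestine, dividing cells lie in the crypts, where stem cells and their fast-dividing progeny replace an epithelium that is shed from the villi, while most epithelial cells of the adult kidney divide rarely.

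Levels below are log2 processed signal minus the 75th percentile of the same array, so a level of 0 is that percentile, and a level is compared only between arrays for the same probe. That percentile was an intensity of 599 to 769.5 on kidney arrays, 213.3 to 371.3 on MHCIIhi arrays and 100.6 to 184.9 on MHCIIlo arrays, and 71.19% to 73.21%, 60.87% to 64.71% and 51.01% to 57.31% of spots were well above background. The 3 kidney arrays lay on a slide of their own, so kidney and slide cannot be told apart. MHCIIhi 1 and 2 shared a slide, and MHCIIhi 3 shared another with the 3 MHCIIlo arrays. With 3 arrays a group, the number of arrays limits precision. The labelled cell types could be read in most of their markers. Of 9 kidney epithelium markers, 9 were measured on all kidney arrays, with a summed level (log2 of the sum of scaled signals) of 9.80 to 9.88 in kidney, -0.87 to 0.04 in MHCIIhi and -0.07 to 0.62 in MHCIIlo. Umod (mean 8.92) and Cdh16 (8.12) had the highest kidney levels of the 9. Pax2 did not follow, with means of -3.77 in kidney, -4.49 in MHCIIhi and -3.47 in MHCIIlo. Pax8 differed less than most, at -0.32, -2.95 and -1.12. All 5 small intestine markers were measured on all arrays of both intestinal groups, and 3 of the 5 on no kidney array, with sums of 0.56 to 2.15 in kidney, 7.69 to 8.58 in MHCIIhi and 9.28 to 9.72 in MHCIIlo.

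Replication genes were higher in MHCIIhi cells than in MHCIIlo cells as a group. One limma fit over the 9 arrays tested 19990 genes, and a call needed both an adjusted p (Benjamini-Hochberg, over those genes) under 0.05 and a log2 difference of 1 or more in size. Of the 43 genes, 36 rose in MHCIIhi, none fell and 7 were not called, where 14.9% of all genes tested were called higher and 16.1% lower. Of the 43, 39 had all 3 MHCIIhi arrays above all 3 MHCIIlo arrays, where 23.7% of all genes did, and 0 had every array below, where 32.7% did. The median log2 difference of the 43 was 2.92, beside -0.24 over all genes tested, and 2.76 with 8 genes that had a dim MHCIIlo array at their lower bounds. At an unadjusted p below 0.05 in the same fit, 39 were higher and 0 lower, where 24.2% of all genes were higher and 33.9% lower. All 43 passed the filter on dim probes. Of these, 33 were well above background on every array of each group and 1, Orc1, passed through MHCIIhi alone. In these bulk samples, fewer dividing cells and less RNA per cell cannot be told apart.

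The kidney stood below MHCIIhi in nearly the whole set. Against MHCIIlo, kidney calls went both ways, in counts near those over all genes. Against MHCIIhi, 42 of 43 genes fell in kidney and none rose, where 22.8% of all genes were called lower and 25.6% higher, with a median difference of -2.52 beside -0.02 over all genes. All kidney arrays lay below all MHCIIhi arrays for 42 genes and above for 0, where 36.1% of all genes lay below and 36.1% above. Against MHCIIlo, 12 rose in kidney and 11 fell, where 29.8% of all genes were called higher and 27.8% lower, with a median of 0.23 beside 0.04 (0.06 with 9 genes at their bounds, or at 0 where no bound could be given). All kidney arrays lay above all MHCIIlo arrays for 13 genes and below for 17, where 39.6% and 38.5% of all genes did. The kidney comparisons share the kidney arrays, and each intestinal group enters 2 of the 3 comparisons. The most frequent pattern, in 18 genes, was higher in MHCIIhi than MHCIIlo, lower in kidney than MHCIIhi and not called between kidney and MHCIIlo. In 11 genes kidney was between the intestinal groups by all 3 calls, and in 6 genes kidney was below both while MHCIIhi was above MHCIIlo. Of the 43 group means, 41 were highest in MHCIIhi, the exceptions being Rpa1 (kidney) and Ccne2 (MHCIIlo). How often all genes show these patterns, or a highest mean in MHCIIhi, was not counted, so these counts only describe the set. The median of the 43 mean levels was -1.19 in kidney, 2.33 in MHCIIhi and -1.27 in MHCIIlo, and the median SD between arrays was 0.19, 0.38 and 0.51.

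**Figure D1:**
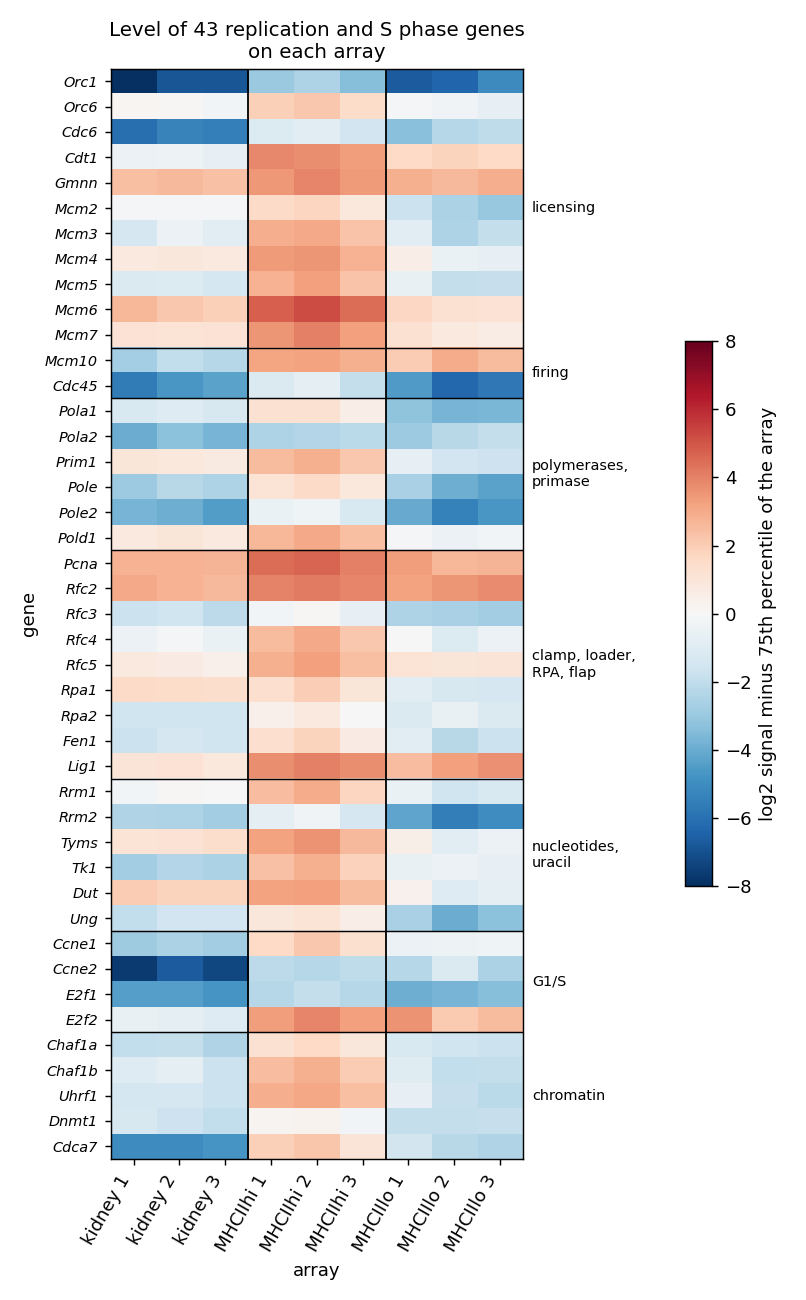
Level of each of the 43 genes (rows, grouped by role) on each of the 9 arrays (columns), in log2 units relative to that array's 75th percentile. The MHCIIhi columns are the highest of the 3 groups by their mean in 41 rows. The genes called lower in kidney than in both intestinal groups are Cdc6, Cdt1, Mcm10, Pola2, Lig1, Tk1, Ccne1, Ccne2, E2f2, Cdca7 and Orc1, the last dim in kidney and MHCIIlo.

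Of the origin licensing genes, 10 of 11 rose in MHCIIhi, with a median difference of 3.08 (2.76 with Orc1 at its bound). All 6 genes of the Mcm2 to Mcm7 ring, the motor of the replicative helicase, rose. Mcm3 had levels of 2.89, 3.04 and 2.29 on the MHCIIhi arrays, against -0.83, -2.45 and -1.90 on the MHCIIlo arrays, a difference of 4.47 ± 0.42 (SE, adjusted p = 0.000276, limma), or 22.2-fold. Mcm5 had 2.79, 3.29 and 2.30 in MHCIIhi and -0.62, -1.91 and -1.84 in MHCIIlo, a difference of 4.25 ± 0.37 (adjusted p = 0.000241). Both genes were separated by more than 2 log2 units between the lowest MHCIIhi array and the highest MHCIIlo array. The other ring subunits followed with differences of 3.79 ± 0.34 for Mcm2, 3.48 ± 0.27 for Mcm6, 3.45 ± 0.33 for Mcm4 and 2.76 ± 0.23 for Mcm7, and the groups did not overlap for any of them.

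The loaders of that ring rose as well. Cdt1, which brings the ring to the origin, had 3.85, 3.74 and 3.32 in MHCIIhi and 1.59, 1.75 and 1.62 in MHCIIlo, a difference of 1.99 ± 0.18 (adjusted p = 0.00027). Cdc6, the ATPase that works beside it, had -1.07, -0.84 and -1.55 in MHCIIhi and -3.32, -2.31 and -2.01 in MHCIIlo, a difference of 1.39 ± 0.36 (adjusted p = 0.0144). The arrays of Cdc6 did not overlap, though its call was lost without MHCIIhi replicate 2 (difference 1.23, adjusted p = 0.0543). Among the origin recognition subunits, Orc6 rose by 2.19 ± 0.23. Orc1 was well above background on all 3 MHCIIhi arrays and on none of the MHCIIlo arrays, which gives at least 2.01-fold, and with normexp background correction the difference was -0.18. Bounds of this kind compare the mean of the brighter group with a floor on each dim array, which is the lowest signal found well above background there or, where it is larger, what the probe itself gave. They hold for the main processing only, and for several genes an alternative gave a difference below the bound, as listed at the end. Geminin (Gmnn), the inhibitor of Cdt1, was not called at 3.49, 3.89 and 3.39 in MHCIIhi and 2.85, 2.61 and 2.88 in MHCIIlo. Its arrays did not overlap and its adjusted p was 0.00923, but its difference of 0.81 ± 0.19 was below the size set for a call.

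Of the origin firing factors, 1 of 2 rose. Cdc45, which joins the Mcm ring in the running helicase, was well above background on all 3 MHCIIhi arrays (-1.14, -0.78 and -1.90) and on none of the MHCIIlo arrays (-4.53, -6.27 and -5.70), at least 6.31-fold higher. Mcm10 had 3.13, 3.24 and 2.82 in MHCIIhi and 2.06, 2.94 and 2.53 in MHCIIlo. Its groups overlapped, and the difference of 0.55 ± 0.27 was not called (adjusted p = 0.117).

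Promoter windows of some of the genes are shown as a description, and a link between their sites and the differences was not tested. RefSeq promoter sequences on GRCm38.p6, from 250 bases before to 50 bases from the transcription start, were matched by symbol for 38 of the 43 genes (46 windows). E2F-type sites were searched as TTTGGCGC, TTTCCCGC, TTTGCCGC and TTTCGCGC, and CCAAT boxes as CCAAT, both on either strand, with overlapping matches each counted. Capitals below mark both kinds of match, in the strand of the gene.
Mcm2, chr6:88898731-88899030, minus strand: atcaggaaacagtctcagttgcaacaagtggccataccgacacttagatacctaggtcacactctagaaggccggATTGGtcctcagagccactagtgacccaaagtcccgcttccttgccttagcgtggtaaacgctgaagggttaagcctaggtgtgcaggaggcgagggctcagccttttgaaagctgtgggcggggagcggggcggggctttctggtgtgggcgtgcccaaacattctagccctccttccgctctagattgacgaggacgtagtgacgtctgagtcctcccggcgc
Mcm3, chr1:20820263-20820562, minus strand: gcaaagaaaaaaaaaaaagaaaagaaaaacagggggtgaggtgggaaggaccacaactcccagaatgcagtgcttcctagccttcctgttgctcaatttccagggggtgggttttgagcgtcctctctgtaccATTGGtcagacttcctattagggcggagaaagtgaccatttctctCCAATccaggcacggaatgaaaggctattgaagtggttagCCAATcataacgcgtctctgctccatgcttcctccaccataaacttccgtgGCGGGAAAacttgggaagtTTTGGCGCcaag
Mcm5, chr8:75109259-75109558, plus strand: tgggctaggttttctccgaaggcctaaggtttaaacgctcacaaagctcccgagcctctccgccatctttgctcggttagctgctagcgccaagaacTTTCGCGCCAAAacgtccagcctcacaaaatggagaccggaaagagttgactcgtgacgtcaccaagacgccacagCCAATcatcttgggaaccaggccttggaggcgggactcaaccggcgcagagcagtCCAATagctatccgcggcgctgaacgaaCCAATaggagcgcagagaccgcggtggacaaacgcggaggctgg
Mcm6, chr1:128359656-128359955, minus strand: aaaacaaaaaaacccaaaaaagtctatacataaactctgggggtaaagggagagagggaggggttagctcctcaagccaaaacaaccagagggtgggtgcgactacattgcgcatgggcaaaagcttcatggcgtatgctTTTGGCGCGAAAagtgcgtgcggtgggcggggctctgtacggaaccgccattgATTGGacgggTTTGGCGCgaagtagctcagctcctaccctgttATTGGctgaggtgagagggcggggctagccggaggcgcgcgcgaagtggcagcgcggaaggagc
Mcm7, chr5:138171834-138172133, minus strand: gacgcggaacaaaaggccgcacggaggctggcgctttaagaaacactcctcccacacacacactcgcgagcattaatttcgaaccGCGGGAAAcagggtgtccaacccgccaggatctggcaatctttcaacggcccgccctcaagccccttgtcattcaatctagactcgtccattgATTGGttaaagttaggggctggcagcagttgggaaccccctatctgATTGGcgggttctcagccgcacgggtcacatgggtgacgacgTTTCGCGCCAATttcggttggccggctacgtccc
Mcm10, chr2:5012742-5013041, minus strand: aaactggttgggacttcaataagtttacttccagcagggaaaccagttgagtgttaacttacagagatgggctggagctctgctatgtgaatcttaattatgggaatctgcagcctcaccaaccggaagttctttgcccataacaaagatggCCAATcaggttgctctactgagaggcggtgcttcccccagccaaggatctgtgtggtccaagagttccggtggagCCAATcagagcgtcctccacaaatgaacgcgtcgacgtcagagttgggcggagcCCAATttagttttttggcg
Pola1, chrX:93632106-93632405, minus strand: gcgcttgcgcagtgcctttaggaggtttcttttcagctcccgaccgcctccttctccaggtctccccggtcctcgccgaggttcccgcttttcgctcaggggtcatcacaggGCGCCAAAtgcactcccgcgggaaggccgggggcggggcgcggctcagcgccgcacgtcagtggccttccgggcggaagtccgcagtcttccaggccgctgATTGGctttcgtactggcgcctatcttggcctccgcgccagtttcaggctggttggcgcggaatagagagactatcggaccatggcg
The Mcm3, Mcm5 and Mcm7 windows shown hold 2 E2F-type sites and 3 CCAAT boxes each, and the Mcm6 window 3 and 2. The Mcm2 window holds no E2F-type match and 1 CCAAT box, and so does another Mcm7 window, not shown. Both genes rose. In Mcm5 and Mcm6 a pair of E2F-type matches overlap each other, and in Mcm7 an E2F-type match shares letters with a CCAAT box. The Mcm10 window, shown for a gene that was not called, holds 3 CCAAT boxes and no complete E2F-type match. It ends in all but the last letter of TTTGGCGC, so a site running past its edge was not tested. Pola1, which had a large difference between the intestinal groups, holds 1 of each. The windows of Chaf1b and Prim1, which rose by 4.07 and 3.79, and of Cdc45, Ung and Rrm2, not shown, hold no E2F-type match.

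Over the whole set, 16 of 46 windows (34.8%) held an E2F-type site, and 744 of all 32851 windows in the table (2.26%) did. CCAAT boxes were in 54.3% of the windows of the set and 37.4% of all windows. The windows of the set had a median GC content of 58.8%, beside 52.7% over all windows, and the part of base composition in these shares was not tested. Among genes with a window, 14 of the 34 called higher in MHCIIhi and 2 of the 4 not called held an E2F-type site. Those not called were Lig1 and E2f2, both with a site, and Mcm10 and Pola2, both with none inside the window. The Mcm10 window ends within a possible site. The matches were most frequent in the first 50 bases from the start, where 9 of 46 windows (19.6%) had one, beside 0.377% of all windows.

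**Figure D2:**
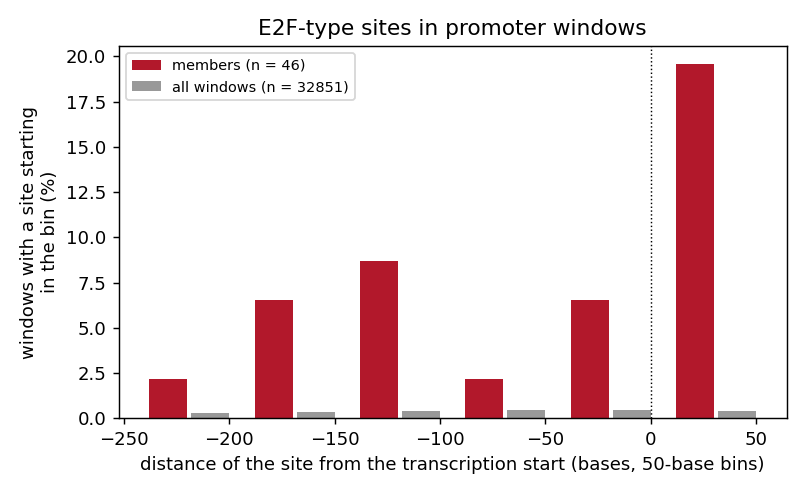
Share of promoter windows (percent, y axis) with an E2F-type match starting in each 50-base bin (x axis, bases from the transcription start), for the 46 windows of the set and all 32851 windows. The bin after the start has the highest share in the set (19.6%), and all windows lie below 0.5% in every bin.

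Of the polymerase and primase genes, 5 of 6 rose in MHCIIhi. Pole, the catalytic subunit of leading-strand DNA polymerase epsilon, had 1.12, 1.53 and 0.82 in MHCIIhi and -2.60, -3.90 and -4.27 in MHCIIlo, where 1 of 3 arrays was well above background. Its fitted difference was 4.75 ± 0.42 (adjusted p = 0.000241), at least 22.1-fold. Pola1, the catalytic subunit of polymerase alpha, which starts each strand, had 1.21, 1.23 and 0.56 in MHCIIhi and -3.24, -3.72 and -3.68 in MHCIIlo, with 2 of 3 MHCIIlo arrays measured, and was also at least 22.1-fold higher. Prim1, the primase that lays the RNA primer, rose by 3.79 ± 0.29, Pold1, the catalytic subunit of polymerase delta, by 2.94 ± 0.21, and Pole2, another epsilon subunit, at least 8.69-fold. Pola2, the accessory subunit of polymerase alpha, was the exception at -2.47, -2.33 and -2.16 in MHCIIhi and -2.88, -2.22 and -1.89 in MHCIIlo. Its arrays overlapped, and the difference was 0.01 ± 0.28.

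Of the clamp and its partners, 7 of 9 rose, with a median difference of 1.80. Pcna, the sliding clamp, had 4.46, 4.63 and 4.04 in MHCIIhi and 3.36, 2.68 and 2.74 in MHCIIlo, a difference of 1.45 ± 0.23 (adjusted p = 0.00213). The SD between arrays was 0.30 in MHCIIhi and 0.37 in MHCIIlo, and the SD over the 10 spots of its probe on an array was 0.03 to 0.09. Of the clamp loader, Rfc4 rose by 3.09 ± 0.31, Rfc3 by 2.32 ± 0.23 and Rfc5 by 1.80 ± 0.24, while Rfc2 was not called (0.49 ± 0.20, adjusted p = 0.0675). Fen1, the nuclease that trims Okazaki fragments, rose by 2.87 ± 0.38. Of the single-strand binding complex, Rpa1 rose by 2.59 ± 0.26 and Rpa2 by 1.35 ± 0.24. DNA ligase 1 (Lig1), which seals the fragments, had 3.73, 4.02 and 3.69 in MHCIIhi and 2.49, 3.25 and 3.65 in MHCIIlo. Its lowest MHCIIhi array lay just above its highest MHCIIlo array, and the difference of 0.68 ± 0.28 was not called (adjusted p = 0.0716).

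All 6 nucleotide genes rose in MHCIIhi, with a median difference of 3.48 (3.45 with Rrm2 and Ung at their bounds). Rrm1, the large subunit of ribonucleotide reductase, had 2.44, 2.97 and 1.73 in MHCIIhi and -0.54, -1.60 and -1.20 in MHCIIlo, a difference of 3.49 ± 0.35 (adjusted p = 0.000344). Rrm2, the small subunit of the same enzyme, was at -0.69, -0.27 and -1.36 in MHCIIhi and well above background on no MHCIIlo array, at least 8.59-fold higher. Thymidylate synthase (Tyms) rose by 3.44 ± 0.37, thymidine kinase 1 (Tk1) by 2.92 ± 0.25 and Dut, which removes dUTP, by 3.46 ± 0.35. Ung, which cuts uracil out of DNA, was measured on 2 of 3 MHCIIlo arrays and rose at least 17.5-fold. No array of MHCIIhi overlapped MHCIIlo in any of the 6.

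All 5 chromatin copying genes rose as well, with a median of 3.76. Uhrf1, which recognises hemimethylated DNA behind the fork, had 2.92, 3.11 and 2.39 in MHCIIhi and -0.67, -1.82 and -2.14 in MHCIIlo, a difference of 4.35 ± 0.37 (adjusted p = 0.000234). Dnmt1, the methyltransferase it recruits, had 0.24, 0.28 and -0.24 in MHCIIhi and -1.90, -1.92 and -1.84 in MHCIIlo, a difference of 1.98 ± 0.22. Dnmt1 thus differed by fewer log2 units than Uhrf1, with an SD of 0.29 in MHCIIhi and 0.04 in MHCIIlo. The histone chaperone subunits Chaf1b and Chaf1a rose by 4.07 ± 0.35 and 2.75 ± 0.24, and Cdca7, which acts with the chromatin remodeller Hells, by 3.76 ± 0.34.

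Of the regulators of entry into S phase, 2 of 4 rose, with a median of 1.12, the lowest of the 7 roles. Ccne1, an E cyclin, had 1.60, 2.13 and 1.31 in MHCIIhi and -0.47, -0.41 and -0.35 in MHCIIlo, a difference of 2.09 ± 0.22 (adjusted p = 0.000395). Ccne2, the other, had -2.12, -2.28 and -2.06 in MHCIIhi and -2.31, -1.16 and -2.54 in MHCIIlo, overlapping groups and a difference of -0.15 ± 0.38. E2f1, an activating E2F, had -2.29, -1.89 and -2.30 in MHCIIhi and -3.93, -3.69 and -3.40 in MHCIIlo, where 2 of 3 arrays were measured, and rose at least 2.85-fold, though the difference was -0.05 with normexp. E2f2, a related activator, had 3.33, 3.91 and 3.27 in MHCIIhi and 3.62, 2.12 and 2.55 in MHCIIlo. MHCIIlo replicate 1 lay inside the MHCIIhi range for E2f2 and the gene was not called (0.74 ± 0.37, adjusted p = 0.124), but without that array the difference was 1.17 and passed (adjusted p = 0.00959).

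**Figure D3:**
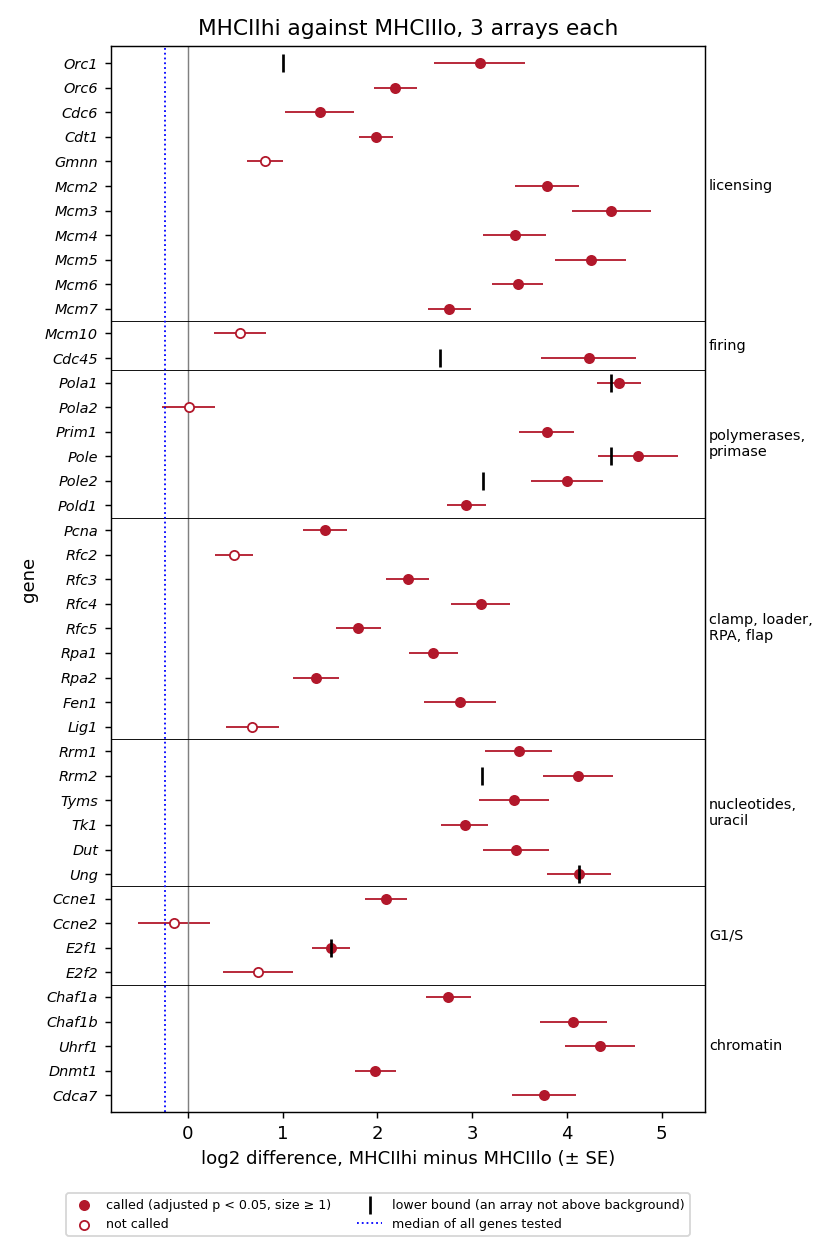
Fitted log2 difference, MHCIIhi minus MHCIIlo, with its SE for each of the 43 genes, grouped by role, from 3 arrays a group. Filled points are called, open points are not, black ticks are lower bounds where a MHCIIlo array was not well above background, and the dotted line is the median of all genes tested (-0.24). The 36 filled points lie between 1.35 and 4.75.

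The arrays within each intestinal group kept much the same order over the set. MHCIIhi 3 was the lowest of its group for 41 of the 43 genes and MHCIIhi 2 the highest for 40, with median levels over the set of 2.32, 2.82 and 1.73 on MHCIIhi 1, 2 and 3. MHCIIlo 1 was the highest of its group for 29, with medians of -0.67, -1.56 and -1.63. The same counts over all genes were not taken, so this order is not shown to be particular to the set. MHCIIhi 3 is the array that shares a slide with MHCIIlo. With slide as a fixed block, which leaves MHCIIhi 3 against the 3 MHCIIlo arrays, 32 genes were called higher and 0 lower, and the median difference was 2.44. The calls of Orc1, Cdc6, Pcna and Rpa2 were lost, with adjusted p = 0.0519, 0.233, 0.0566 and 0.0814. Without MHCIIhi replicate 3 and MHCIIlo replicate 1 together, an alternative chosen after seeing the data, 37 were called higher and 0 lower, with a median of 3.15.

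Markers of other cell types moved between the same groups. Of 6 crypt stem cell markers, 4 were called higher in MHCIIhi (Lgr5, Olfm4, Smoc2 and Znrf3) and none lower, with summed levels of 3.71 to 4.69 in MHCIIhi and 1.87 to 2.22 in MHCIIlo. MHCIIhi 3 had the lowest crypt sum of its group (3.71) and the highest enterocyte sum (10.01). Of 8 enterocyte markers, 7 were called lower in MHCIIhi, with sums of 8.50 to 10.01 in MHCIIhi and 10.54 to 11.19 in MHCIIlo. Of 5 Paneth markers 4 and of 6 goblet markers 5 were called higher, with sums of 7.61 to 8.06 and 9.66 to 10.50 in MHCIIhi, and 5.14 to 6.75 and 8.12 to 9.37 in MHCIIlo. Of 11 leukocyte markers, 7 were called lower in MHCIIhi and 1 higher. The higher one was Lyz2, whose near-identical copy Lyz1 is a Paneth gene, and the leukocyte sums were 6.64 to 7.44 in MHCIIhi and 5.63 to 6.38 in MHCIIlo. Of 6 fibroblast and smooth muscle markers tested, 4 were called lower, with sums of 4.78 to 5.03 in MHCIIhi and 5.59 to 6.06 in MHCIIlo. The part of these cell types in the differences of the replication genes was not tested.

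Of the 11 licensing genes, 2 were called higher in kidney than in MHCIIlo, 3 lower and 6 were not called. The ring subunit Mcm2 had -0.17, -0.09 and -0.16 in kidney and -1.70, -2.55 and -3.02 in MHCIIlo, a difference of 2.29 ± 0.34 (adjusted p = 0.000283). Mcm4 had 0.77, 0.91 and 0.76 in kidney and 0.54, -0.52 and -0.67 in MHCIIlo, a difference of 1.03 ± 0.33 (adjusted p = 0.0199). Mcm4 lost its call without MHCIIlo replicate 2 (0.88), MHCIIlo replicate 3 (0.80) or kidney replicate 2 (0.98). Mcm3, Mcm5, Mcm6 and Mcm7 were not called, with differences of 0.81, 0.23, 0.90 and 0.28. Outside the ring, Orc6 and Gmnn were not called (0.37 and -0.35), while Cdc6 and Cdt1 fell. Cdc6 had -6.04, -5.33 and -5.44 in kidney, 2 of 3 arrays measured, and -3.32, -2.31 and -2.01 in MHCIIlo, at least 7.89-fold lower in kidney. Cdt1 had -0.46, -0.39 and -0.64 in kidney and 1.59, 1.75 and 1.62 in MHCIIlo, a difference of -2.15 ± 0.18 (adjusted p = 9.72e-06). Orc1 passed the test (-1.27) but was well above background on no array of either group, so it has no measured fold, and its call was lost without MHCIIhi replicate 1, MHCIIlo replicate 2 or 3, or kidney replicate 1 (-1.42 to -0.80). All 11 licensing genes fell in kidney against MHCIIhi, with differences of -4.45 (Cdc6) to -1.16 (Gmnn).

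Both firing factors fell in kidney against MHCIIhi, and Mcm10 also against MHCIIlo. Mcm10 had -2.69, -2.0 and -2.29 in kidney, against means over 3 arrays of 3.07 ± 0.22 (SD) for MHCIIhi and 2.51 ± 0.44 (SD) for MHCIIlo. Its differences were -5.39 ± 0.27 from MHCIIhi (adjusted p = 5.21e-07) and -4.84 ± 0.27 from MHCIIlo (adjusted p = 8.06e-07). Cdc45 had -5.57, -4.68 and -4.31 in kidney, a difference of -3.58 ± 0.50 from MHCIIhi, and was not called against MHCIIlo (0.65 ± 0.50, and -1.54 with normexp), where no MHCIIlo array was measured.

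Of the nucleotide genes, 5 of 6 were called higher in kidney than in MHCIIlo, where 12 of all 43 and 29.8% of all genes tested were. Dut had 2.0, 1.81 and 1.80 in kidney and 0.34, -1.02 and -0.70 in MHCIIlo, a difference of 2.33 ± 0.35 (adjusted p = 0.00029). Against MHCIIhi, Dut was lower in kidney by the smallest called amount of the set (-1.13 ± 0.35), a call lost without MHCIIhi replicate 1 or 2 or without kidney replicate 2 or 3. Rrm2 had -2.38, -2.48 and -2.78 in kidney and no measured MHCIIlo array, at least 2.51-fold higher in kidney. Ung was at least 3.05-fold higher, but with normexp background correction the differences of Rrm2 and Ung turned to -0.60 and -0.07. Tyms differed by 1.55 ± 0.37 and Rrm1 by 1.07 ± 0.35. The call of Rrm1 was lost without MHCIIlo replicate 2 (0.83), MHCIIlo replicate 3 (1.03), kidney replicate 2 (1.01) or kidney replicate 3 (1.06). Tk1 went the other way, with -2.80, -2.37 and -2.55 in kidney and -0.62, -0.49 and -0.67 in MHCIIlo, a difference of -1.98 ± 0.25 (adjusted p = 0.000106). Against MHCIIhi, Tk1 fell in kidney with a difference of -4.90 ± 0.25.

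Among the polymerases, 4 of 6 rose in kidney against MHCIIlo, where 29.8% of all genes tested were called higher. Pola1 had -1.20, -1.06 and -1.31 in kidney and -3.24, -3.72 and -3.68 in MHCIIlo, at least 4.84-fold higher. Prim1 had 0.96, 0.85 and 0.74 in kidney and -0.63, -1.56 and -1.63 in MHCIIlo, a difference of 2.12 ± 0.29 (adjusted p = 0.000176). Pold1 rose by 1.09 ± 0.21 (0.99 and not called without MHCIIlo replicate 2). Pole passed narrowly (1.05 ± 0.42, adjusted p = 0.0468) with overlapping arrays, and lost its call when an array was left out, with adjusted p = 0.0509 to 0.159, except without MHCIIlo replicate 1 or kidney replicate 1. With normexp Pole was at -0.73, and Pola1 was not called at 0.41. Pola2 had -4.00, -3.31 and -3.72 in kidney and fell against both groups, with differences of -1.36 from MHCIIhi and -1.35 from MHCIIlo.

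Rpa1 was the 1 gene of the set that was not called between kidney and MHCIIhi. It had 1.52, 1.44 and 1.41 in kidney, 1.37, 1.97 and 0.99 in MHCIIhi and -0.82, -1.30 and -1.32 in MHCIIlo. Kidney and MHCIIhi overlapped (0.01 ± 0.26) and kidney lay above MHCIIlo by 2.60 ± 0.26 (adjusted p = 2.5e-05). Its partner Rpa2 fell against MHCIIhi (-1.96 ± 0.24) and was not called against MHCIIlo (-0.60 ± 0.24). Lig1 had 1.04, 1.14 and 0.84 in kidney, below every array of both intestinal groups, with differences of -2.81 ± 0.28 from MHCIIhi and -2.13 ± 0.28 from MHCIIlo. Pcna and Fen1 fell against MHCIIhi (-1.63 and -2.82), and neither was called against MHCIIlo (-0.18 and 0.05).

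All 4 regulators of S phase entry fell in kidney against MHCIIhi, where 22.8% of all genes were called lower. Against MHCIIlo 3 of 4 fell, where 27.8% of all genes were called lower. Ccne2 was well above background on no kidney array (-7.63, -6.63 and -7.26) and on every intestinal array, at least 14.2-fold lower in kidney than in MHCIIhi and at least 15.8-fold lower than in MHCIIlo. Ccne1 had -2.84, -2.51 and -2.81 in kidney, a difference of -4.40 ± 0.22 from MHCIIhi and -2.31 ± 0.22 from MHCIIlo. E2f2 had -0.58, -0.78 and -1.06 in kidney, a difference of -4.31 ± 0.37 from MHCIIhi and -3.57 ± 0.37 from MHCIIlo. For all 3 genes every kidney array lay below every intestinal array. Of all genes, 36.1% had every kidney array below MHCIIhi and 38.5% below MHCIIlo, and the share below both was not counted. E2f1 had -4.40, -4.42 and -4.71 in kidney, fell against MHCIIhi (-2.35 ± 0.20) and was not called against MHCIIlo (-0.84 ± 0.20, adjusted p = 0.00517), short of the size set for a call. Another E2f1 probe gave -0.62 against MHCIIlo, with overlapping arrays and no MHCIIlo array measured.

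Of the chromatin genes, Cdca7 had -5.04, -5.04 and -4.71 in kidney, 1.93, 2.19 and 1.03 in MHCIIhi and -1.50, -2.25 and -2.39 in MHCIIlo. The 3 groups did not overlap, and its difference of -6.65 ± 0.34 between kidney and MHCIIhi (adjusted p = 5.64e-07) was the most negative of the set. Uhrf1, Chaf1b, Chaf1a and Dnmt1 fell in kidney against MHCIIhi (-4.29, -3.62, -3.34 and -1.72), and none of the 4 was called against MHCIIlo (0.06, 0.44, -0.59 and 0.26).

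**Figure D4:**
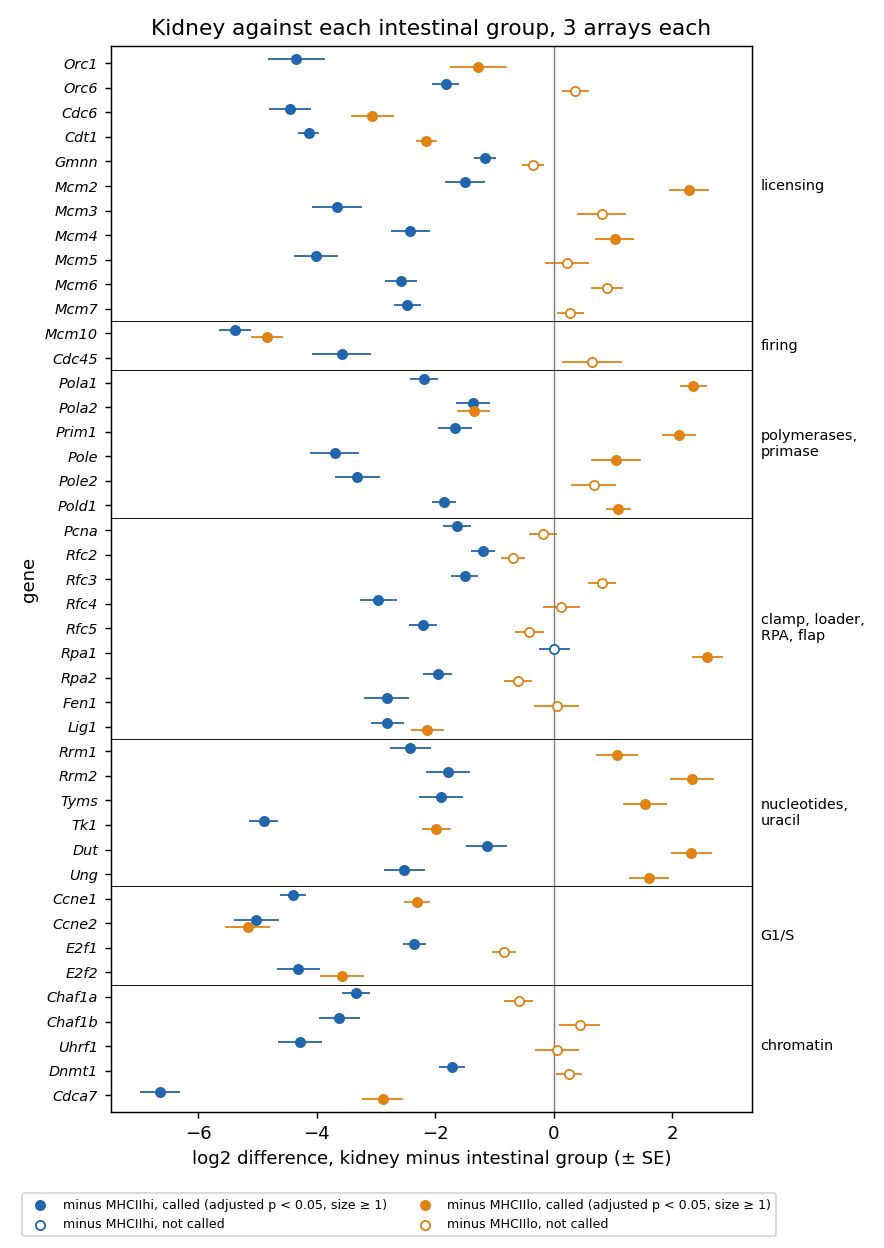
Fitted log2 difference with its SE, kidney minus MHCIIhi (blue) and kidney minus MHCIIlo (orange), for each of the 43 genes by role, 3 arrays a group. Filled points are called and open points are not. The blue points lie below 0 except Rpa1 (0.01), and the orange points run from -5.17 (Ccne2) to 2.60 (Rpa1).

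Endothelial markers were present in the kidney arrays. All 4 (Pecam1, Cdh5, Kdr and Tek) were measured on every kidney array and called higher there against both intestinal groups, with summed levels of 3.03 to 4.12 in kidney, -4.46 to -3.77 in MHCIIhi and -3.59 to -2.79 in MHCIIlo. Of 11 leukocyte markers, 3 were called higher in kidney than in MHCIIhi (Csf1r by 5.41, Cd8a by 2.31 and Ptprc by 1.45) and 6 lower, and against MHCIIlo 1 was higher (Csf1r, 3.84) and 8 lower. Leukocyte sums, which hold Lyz2, were 1.79 to 2.88 in kidney, 6.64 to 7.44 in MHCIIhi and 5.63 to 6.38 in MHCIIlo, and 2 of the 11 markers were measured on no kidney array. Of 6 fibroblast and smooth muscle markers tested, 4 were called higher in kidney than in MHCIIhi (Dcn by 4.68, Myh11 by 4.32, and Col3a1 and Col1a1, at least 3.27-fold and 1.40-fold) and 1, Acta2, lower. Against MHCIIlo, Myh11 was higher in kidney (3.40) and Acta2 lower. Fibroblast and smooth muscle sums were 3.60 to 4.29 in kidney, 4.78 to 5.03 in MHCIIhi and 5.59 to 6.06 in MHCIIlo, and hold Acta2. The part of these cell types in the kidney values was not tested.

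Another probe of the same gene gave a different size for several genes. Of the 43 genes, 15 have more than 1 probe, and 12 other probes were measured on all MHCIIhi arrays. Of these 12, 10 had the sign of the probe used and 8 lay within 1 log2 unit of it in MHCIIhi minus MHCIIlo. Both E2f1 probes lie on chromosome 2, the probe used at chr2:154251447-154251506 and the other at chr2:154251709-154251768 (mm8, minus strand). The other E2f1 probe had -1.60, -0.96 and -2.14 in MHCIIhi and -5.26, -5.07 and -5.73 in MHCIIlo, none of the last well above background, a difference of 3.79 where the probe used gave 1.51. The other Cdc6 probe had -2.24, -1.99 and -2.34 in MHCIIhi and -4.83, -6.27 and -5.72 in MHCIIlo, a difference of 3.42 where the probe used gave 1.39. Both probes of each gene were higher in MHCIIhi, and in each case the larger difference came with MHCIIlo signals not well above background. The other Rpa2 probe gave 2.86 where the probe used gave 1.35, with every intestinal array measured. It also turned the sign against MHCIIlo in kidney, at 1.0 where the probe used gave -0.60.

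Pola2 and Ccne2, which were not called on the probe used, were the genes whose probes differed in sign. The other Pola2 probe had -4.41, -3.96 and -2.25 in MHCIIhi and -3.57, -1.92 and -1.03 in MHCIIlo, a difference of -1.37 with overlapping arrays. The other Ccne2 probe gave 0.56 with 2 of 3 MHCIIlo arrays measured. Another 4 probes, of Mcm4, Pole, Rrm1 and Pola2, were well above background on no array and carry no level.

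**Figure D5:**
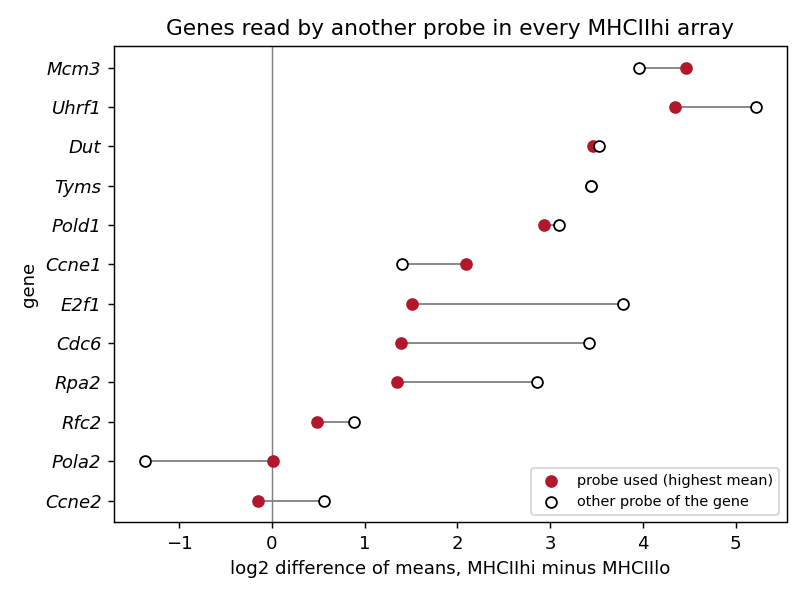
Difference of group means, MHCIIhi minus MHCIIlo (log2), for the 12 genes with another probe measured on all MHCIIhi arrays. Filled points are the probe used and open points the other probe of the gene. E2f1, Cdc6, Rpa2 and Pola2 are more than 1 log2 unit apart.

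The wider replication and S phase genes, in lists of 79 other genes, were also mostly higher in MHCIIhi. Of the 79, 55 rose in MHCIIhi and none fell, where 14.9% of all genes were called higher and 16.1% lower, with a median difference of 1.61 (1.52 with 18 genes at their bounds). At an unadjusted p below 0.05 in the limma fit, 58 were higher and 7 lower, where 24.2% and 33.9% of all genes were. Every MHCIIhi array lay above every MHCIIlo array for 62 and below for 8, where 23.7% and 32.7% of all genes did. All 79 passed the filter on dim probes, 3 of them (Clspn, Cdk2 and E2f7) through MHCIIhi alone. Named genes are those of the largest fitted differences in their list, and lower bounds are given where MHCIIlo arrays were dim, so their order is no ranking. Of 38 other machinery genes 30 rose, among them Top2a, the topoisomerase that untangles copied DNA (4.37 ± 0.46), the fork protector Timeless (at least 9.94-fold, 1 of 3 MHCIIlo arrays measured), the helicase gene Mcm8 (at least 8.50-fold, 1 of 3) and the checkpoint kinase Chek1 (at least 3.49-fold, 0 of 3). Chtf18, of an alternative clamp loader, and Tipin, the partner of Timeless, both singled out after their values were seen, were measured on all intestinal arrays and rose by 3.93 ± 0.31 and 3.60 ± 0.29. Of 9 other nucleotide genes 5 rose, among them Shmt1 of folate metabolism (at least 13.5-fold, 2 of 3) and thymidylate kinase Dtymk (2.96 ± 0.36). Of 8 other chromatin genes 7 rose, among them the histone chaperone Asf1b (at least 18.3-fold, 2 of 3) and the remodeller Hells (2.04 ± 0.28). Of 24 other regulators 13 rose, among them cyclin A2, Ccna2 (4.42 ± 0.58), the E2F repressor E2f7 (at least 8.57-fold, 0 of 3), the G1 kinase Cdk6 (3.78 ± 0.29) and cyclin D1, Ccnd1 (3.06 ± 0.56). Ccna2 had 2.70, 3.34 and 1.95 in MHCIIhi and -0.33, -2.41 and -2.52 in MHCIIlo, without overlap. Of the 24 genes not called, Cdkn1a, an inhibitor of cyclin-dependent kinases singled out after its values were seen, had 2.84, 2.81 and 3.25 in MHCIIhi and 4.03, 3.92 and 3.94 in MHCIIlo, lower in every MHCIIhi array and just short of the size set for a call. It was not alone. Samhd1 of the nucleotide list (means of 0.71 in MHCIIhi and 1.71 in MHCIIlo) and Pold4 of the machinery (0.35 and 1.26) were also lower in every MHCIIhi array.

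Against MHCIIhi, 4 of the 79 rose in kidney and 44 fell (median -1.19), where 25.6% of all genes were called higher and 22.8% lower. Against MHCIIlo, 25 rose and 18 fell, where 29.8% of all genes were called higher and 27.8% lower, so these counts lie near those over all genes. The median there was 0.22, or 0.0 with 15 genes at their bounds. Among the nucleotide genes, 2 rose in kidney against MHCIIhi, Rrm2b and Tk2, both named after their values were seen. Rrm2b, the ribonucleotide reductase subunit used outside S phase, had -1.75, -1.68 and -1.75 in kidney and -4.85, -6.26 and -5.99 in MHCIIhi, where 1 of 3 arrays was measured, at least 8.84-fold higher in kidney (adjusted p = 2.32e-05). Tk2, the mitochondrial thymidine kinase, had 0.37, 0.54 and 0.32 in kidney and -2.07, -2.58 and -2.24 in MHCIIhi, a difference of 2.70 ± 0.27 (adjusted p = 2.7e-05). In the same comparison their S phase counterparts Rrm2 and Tk1 fell (-1.78 and -4.90). The other 2 genes that rose were the regulators Ccnd3 (means of 3.23 in kidney and 1.52 in MHCIIhi) and Rbl2 (-0.77 and -2.52). Timeless, Shmt1 and Dtymk were not called between kidney and MHCIIhi (-0.65, 0.24 and -0.30) and rose in kidney against MHCIIlo, by at least 6.34-fold for Timeless, at least 15.9-fold for Shmt1 and a difference of 2.66 for Dtymk.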

How the data were processed

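RNA of 9 pooled samples was labelled with Cy3 and read on single-colour Agilent arrays, and per the file headers the scanner software was Feature Extraction 10.5.1.1. As the headers also show, the processed signal deposited by the authors is an intensity after background subtraction, with no normalization between arrays. Intensity also fills the value table deposited by the authors, where each column equalled the processed signal over the array's median (largest relative deviation 2.37e-05), linear and not centred. Control spots and outlier spots were left out and spots of a probe averaged (41174 probes). Names came from RefSeq by accession (24375 probes matched, 16799 kept the file's name). Probe positions are mm8, per the file headers, and promoters GRCm38.p6.

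Processed signals were divided by the 75th percentile of their array and put on the log2 scale. A gene took its probe of highest mean over the 9 arrays, and 19990 genes had a probe well above background on every array of some group and were tested. Group was fitted over all 9 arrays with limma 3.58.1 (R 4.3.3). The data.table package, release 1.17.8, read the files. Python 3.11.15 with pandas 2.3.3 and matplotlib 3.10.9 searched promoters and drew figures. The fit was tested on simulated data. All 43 genes could be named. Of the wider lists the rule took up to 4 called genes a list and direction with the largest difference between MHCIIhi and MHCIIlo, and of markers their sums. The 43 genes and all lists were chosen with earlier results of these data known. Alternatives covered background correction, scaling, the value table, dim probes, probe choice, the variance model, samples in the fit, replicate and slide blocks, thresholds and each array left out. Replicates were separate pools of mice, per the labels. Same-numbered arrays deviated together with correlations of -0.347 to 0.275, so the numbers were not taken to pair samples.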

Additional observations from a re-analysis of the deposited data

How the results depend on the processing

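The directions of both MHCIIhi comparisons held under every alternative run, with 27 to 37 genes called higher and 0 lower in MHCIIhi minus MHCIIlo and 0 higher and 32 to 42 lower in kidney minus MHCIIhi. The lowest counts, 27 and 32, came from testing only genes well above background on all arrays, where fewer of the set are tested. Of the called genes, 28 of 36, 38 of 42, 5 of 12 (higher) and 10 of 11 (lower) kept their call under every setting that tested them, in MHCIIhi minus MHCIIlo, kidney minus MHCIIhi and, for the last pair, kidney minus MHCIIlo. Leaving out 1 array gave medians of 2.68 to 3.16, -2.75 to -2.38 and -0.0023 to 0.45 in those comparisons, and 8 to 15 higher and 10 to 11 lower in the last.

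With normexp background correction (offset 50), MHCIIhi minus MHCIIlo had 30 genes called higher and a median of 1.90, Orc1 was at -0.18 and E2f1 at -0.05. Cdc6, Cdc45, Pole2, Rpa2 and Rrm2 lost their calls there, at 0.44, 0.69, 0.91, 0.85 and 0.82. For Cdc45, Pole2 and Rrm2 these values lie below the log2 bounds of the main processing (2.66, 3.12 and 3.10). The lowest differences of Pola1 and Ung over the alternatives were 2.31 and 2.15, below their log2 bounds of 4.46 and 4.13. In kidney minus MHCIIlo 7 were called higher, the median was -0.33, and Cdc45, Pole, Pole2, Rrm2 and Ung were at -1.54, -0.73, -1.37, -0.60 and -0.07. The median of kidney minus MHCIIlo was -0.07 in the authors' value table (8 higher) and -0.0023 without MHCIIlo replicate 2. With the mean of a gene's probes, Mcm4, Pole and Rrm1 were at -0.36, -0.89 and -0.47 in that comparison. Each of them has a probe that was well above background on no array. The cause of the other changes was not tested.

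With the replicate number as a block, the counts were 36 higher in MHCIIhi minus MHCIIlo, 42 lower in kidney minus MHCIIhi, and 11 higher and 11 lower in kidney minus MHCIIlo. Slide as a random block (correlation 0.238) gave 36, 41, and 9 and 10.

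Over all genes, calls in MHCIIhi minus MHCIIlo numbered 2977 higher and 3219 lower. They were 1436 and 1525 with normexp, and 1379 and 303 with slide as a fixed block. With the pair MHCIIhi replicate 3 and MHCIIlo replicate 1 left out they were 3685 and 5691. The median of all genes, -0.24, -0.02 and 0.04 in MHCIIhi minus MHCIIlo, kidney minus MHCIIhi and kidney minus MHCIIlo, was -0.50, -0.35 and -0.61 with normexp background correction. It was -0.24, 0.18 and 0.23 when scaled to the median of probes well above background, and -0.26, -0.30 and -0.26 in the value table, scaled to each array's median. Of the calls over all genes, 51.7% were higher in kidney minus MHCIIlo, against 26.9% with normexp. For kidney minus MHCIIhi, 52.9% were higher, against 39.7% with normexp. Signals of probes not well above background limit what the arrays show in MHCIIlo, where 8 of the 43 genes were not measured on every array, and in kidney, where 3 were not.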
